A study of Rattus norvegicus with 8 samples.

Results

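Carbonic anhydrases, which convert carbon dioxide and water to bicarbonate and a proton, and the transporters that carry lactate and a proton out of the cell were examined in rat alveolar type II (ATII) cells given constitutively active HIF1a. The set held 6 carbonic anhydrase genes (Car9, Car12, Car14, Car4, Car2 and Car8), the lactate transporter genes Slc16a3 and Slc16a1, and Bsg, the gene of their chaperone basigin. Members were taken by gene symbol from the array's platform annotation. All 9 were found among the 18166 genes measured, each with 1 probe set. Of the 9 genes, 5 rose in the AdHIF1a wells and 0 fell: Car12 61.5-fold by the fit, Car9 9.24-fold, Slc16a3 3.07-fold, Slc16a1 2.01-fold and Bsg 1.35-fold. Car12 rose from a signal below the median of all probe set values, so 61.5 is no exact size.

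The AdHIF1a wells held freshly isolated ATII cells, the alveolar epithelial cells that secrete surfactant, infected with an adenovirus that expresses a constitutively active HIF1a mutant. The control wells held cells of the same animals infected with AdGFP, an adenovirus that expresses green fluorescent protein, so that both groups carried a virus. Exposure to either virus lasted 3 h, at 20 infectious units per cell (the multiplicity of infection), and RNA was taken 24 h after the cells had been plated on collagen (80%) and Matrigel (20%). Fetal bovine serum (2%) and rat serum (5%) are given for the culture of all wells. The donors were 4 male Sprague Dawley rats of unstated age, each handled on a separate day and each giving 1 AdHIF1a and 1 AdGFP well, which made 4 wells a group on 8 Affymetrix arrays. The labels name no promoter, cell-type restriction or species for the HIF1a sequence. Rat and extraction day coincide, and differences within a rat are free of both.

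Cells that rely on glycolysis make lactate and protons. The monocarboxylate transporters SLC16A1 and SLC16A3 move the pair across the membrane together, and both need basigin to reach the cell surface. Carbonic anhydrases with their active site outside the cell (CA9, CA12, CA14 and CA4) and in the cytosol (CA2) buffer and shuttle the protons that accompany this export. CA9, CA12 and SLC16A3 are known targets of hypoxia-inducible factor in tumour cells, and in human CA9 the binding site of the factor lies next to the transcription start.

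The promoter windows below are shown because the called members differ in whether they hold the letters that hypoxia-inducible factor recognises. Windows run from 250 bases before to 50 bases after the RefSeq transcription start (GRCr8) and were found for 7 of the 9 members; Car2 and Car8 had none in the table. Capitals mark ACGTG on the gene's strand, or CACGT where ACGTG lies on the other strand. The Car12 window (chr8:76169565-76169864, plus strand) and the Car9 window (chr5:62558774-62559073, plus strand) belong to the members with the largest differences. The Slc16a3 window (chr10:106712078-106712377, plus strand) belongs to a called member without the letters, and the Car4 window (chr10:70325108-70325407, plus strand) to an uncalled member with them.
Car12: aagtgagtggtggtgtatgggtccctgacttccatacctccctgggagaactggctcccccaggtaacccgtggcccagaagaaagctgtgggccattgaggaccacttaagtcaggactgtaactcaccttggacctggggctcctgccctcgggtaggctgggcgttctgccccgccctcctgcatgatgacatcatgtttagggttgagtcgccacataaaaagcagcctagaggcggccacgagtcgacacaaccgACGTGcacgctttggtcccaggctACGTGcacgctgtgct
Car9: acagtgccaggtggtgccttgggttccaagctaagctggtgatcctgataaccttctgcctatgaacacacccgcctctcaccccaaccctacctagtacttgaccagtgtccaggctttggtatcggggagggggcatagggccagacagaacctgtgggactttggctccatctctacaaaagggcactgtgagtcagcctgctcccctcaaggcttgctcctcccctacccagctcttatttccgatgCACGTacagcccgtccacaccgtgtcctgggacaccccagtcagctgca
Slc16a3: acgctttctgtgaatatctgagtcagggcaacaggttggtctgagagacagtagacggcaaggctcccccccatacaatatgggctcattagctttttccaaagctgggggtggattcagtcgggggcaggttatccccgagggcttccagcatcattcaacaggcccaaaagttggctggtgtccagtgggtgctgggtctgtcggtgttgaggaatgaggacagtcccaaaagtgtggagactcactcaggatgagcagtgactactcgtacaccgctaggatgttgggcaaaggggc
Car4: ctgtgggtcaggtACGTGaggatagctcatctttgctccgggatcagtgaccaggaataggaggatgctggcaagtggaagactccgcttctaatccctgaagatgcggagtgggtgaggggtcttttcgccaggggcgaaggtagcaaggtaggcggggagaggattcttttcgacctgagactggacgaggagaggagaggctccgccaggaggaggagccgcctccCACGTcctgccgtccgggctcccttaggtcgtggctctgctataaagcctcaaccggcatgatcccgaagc

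In Car12 both ACGTG matches lay after the start, at bases 11 to 15 and 35 to 39, and each was followed directly by a match of GCGTG on the other strand, at bases 16 to 20 and 40 to 44. In Car9 the single ACGTG match lay on the other strand at bases 2 to 6. Searched on both strands, ACGTG was present in 6 of the 7 windows: 2 matches in Car12, 1 in Car9, 2 in Car4, 1 in Car14, 3 in Slc16a1 and 4 in Bsg. Among all 33469 RefSeq windows of this length 19.3% held it, and among the 14505 windows of genes on the array 21.8% did. In Slc16a1 and in Bsg a pair of these matches is the same site, CACGTG, read on both strands. GCGTG, the other core form, was present in Car12, Slc16a1 and Bsg (2, 1 and 2 matches), in 29.7% of all windows and in 39.4% of those of genes on the array. The letters were present in windows of genes that rose (Car12, Car9, Slc16a1, Bsg) and of genes that were not called (Car4, Car14), and absent from that of Slc16a3, which rose. A match is a run of letters in this window and does not show binding.

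**Figure D1:**
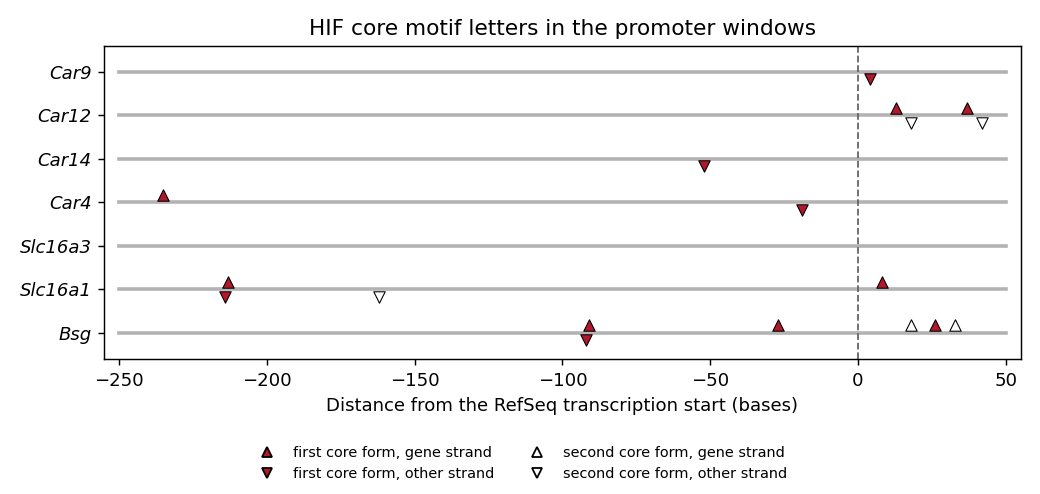
Positions of the core letters in the promoter windows of 7 members, in bases from the RefSeq start (dashed line, x axis); filled triangles are ACGTG and open ones GCGTG, pointing up on the gene's strand and down on the other. Both Car12 matches and the 1 Car9 match of ACGTG lie within 50 bases after the start, and Slc16a3 has no match.

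All values that follow are log2 signals as deposited, and every difference is AdHIF1a minus AdGFP within rats, with its moderated standard error (SE) and two-sided p from limma, adjusted by Benjamini-Hochberg over the 18166 genes; a gene was called at an adjusted p under 0.05. At this threshold 5.68% of all genes were called higher and 7.77% lower (13.4% together), and the median over all 18166 differences was -0.005. Of the 9 members 5 were called higher, with a median difference of 0.44 over the 9, and 0 were called lower by limma (0 also at an unadjusted p under 0.05). No share of all genes was counted at an unadjusted p under 0.05, so counts at that threshold, here and below, have no background. The AdHIF1a and AdGFP wells did not overlap for the 5 called members, as for 22.5% of all genes, and overlapped for the other 4. The members were chosen with earlier results of these data known, so their share of calls is not independent evidence.

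The 2 transmembrane carbonic anhydrases with known links to hypoxia moved most. Car12 gave 10.73, 10.67, 10.52 and 10.78 in the AdHIF1a wells of rats 1 to 4, and 4.79, 4.78, 4.70 and 4.66 in their AdGFP wells. All AdGFP wells lay below the median of all probe set values (5.10), and the 4 AdHIF1a wells lay close together. The means were 10.68 ± 0.11 in AdHIF1a wells and 4.73 ± 0.06 in AdGFP wells (SD, n = 4 each). The difference was 5.94 ± 0.09 (SE), a 61.5-fold rise (95% interval 52.6 to 72.0, limma adjusted p = 5.2e-05), and Car12 ranked first of all genes by difference. The AdGFP wells lay above the lower quartile of all probe set values (3.62). The files hold no detection calls, and a low signal can compress folds, so 61.5 is not an exact size.

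Car9, the other transmembrane enzyme with an extracellular active site, gave 9.42, 8.74, 8.38 and 9.46 in the AdHIF1a wells of rats 1 to 4, against 5.58, 5.73, 5.81 and 6.05 in their AdGFP wells. Its AdHIF1a wells were more widely spread than those of Car12: rats 1 and 4 lay at 9.42 and 9.46, and rat 3 lay lowest. The means were 9.0 ± 0.53 in AdHIF1a wells and 5.79 ± 0.20 in AdGFP wells (SD, n = 4 each). The difference was 3.21 ± 0.21, or 9.24-fold (95% interval 6.38 to 13.4, limma adjusted p = 0.00195), and it ranked 23rd of all genes. The order of the 2 genes was the same in each rat, with differences of 5.94, 5.89, 5.82 and 6.12 for Car12 and 3.84, 3.01, 2.57 and 3.41 for Car9 in rats 1 to 4.

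The other 4 carbonic anhydrases in the set were not called, and the intervals of their measured differences lay below those of Car12 and Car9. Car14, a transmembrane enzyme, gave 5.05, 4.51, 4.70 and 4.76 in AdHIF1a wells and 4.6, 4.59, 4.26 and 4.88 in AdGFP wells. These values overlapped and all lay below the probe set median. The difference was 0.17 ± 0.14 (95% interval -0.17 to 0.52, limma adjusted p = 0.501), positive in rats 1 and 3 and negative in rats 2 and 4. Car4 encodes an enzyme tethered to the outer face of the cell membrane by a lipid anchor and known from lung capillary endothelium. It gave 3.50, 4.06, 4.02 and 3.70 in AdHIF1a wells and 3.81, 3.88, 3.85 and 3.83 in AdGFP wells. The AdHIF1a wells lay on both sides of the tightly grouped AdGFP wells, with a difference of -0.022 ± 0.12 (-0.32 to 0.27, limma adjusted p = 0.93). At this low signal a change in Car14 or Car4 could go undetected.

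Car2, the fast cytosolic enzyme, had clear signals in all 8 wells and varied among rats more than between viruses. It gave 9.77, 8.74, 10.00 and 9.41 in AdHIF1a wells and 9.50, 8.80, 10.03 and 9.21 in AdGFP wells of rats 1 to 4. Rat 3 was highest and rat 2 lowest with either virus. The difference was 0.095 ± 0.098 (95% interval -0.15 to 0.34, limma adjusted p = 0.606), so that any change in Car2 in these wells lay between 0.901-fold and 1.27-fold by that interval. Car8, a carbonic anhydrase-related protein that lacks the enzyme's activity, gave 7.61, 7.19, 7.06 and 7.14 in AdHIF1a wells and 7.53, 7.67, 7.26 and 7.76 in AdGFP wells. It was lower in rats 2, 3 and 4 (-0.48, -0.20 and -0.62) and 0.08 higher in rat 1. Its difference of -0.31 ± 0.14 was not called (-0.65 to 0.04, limma adjusted p = 0.227).

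**Figure D2:**
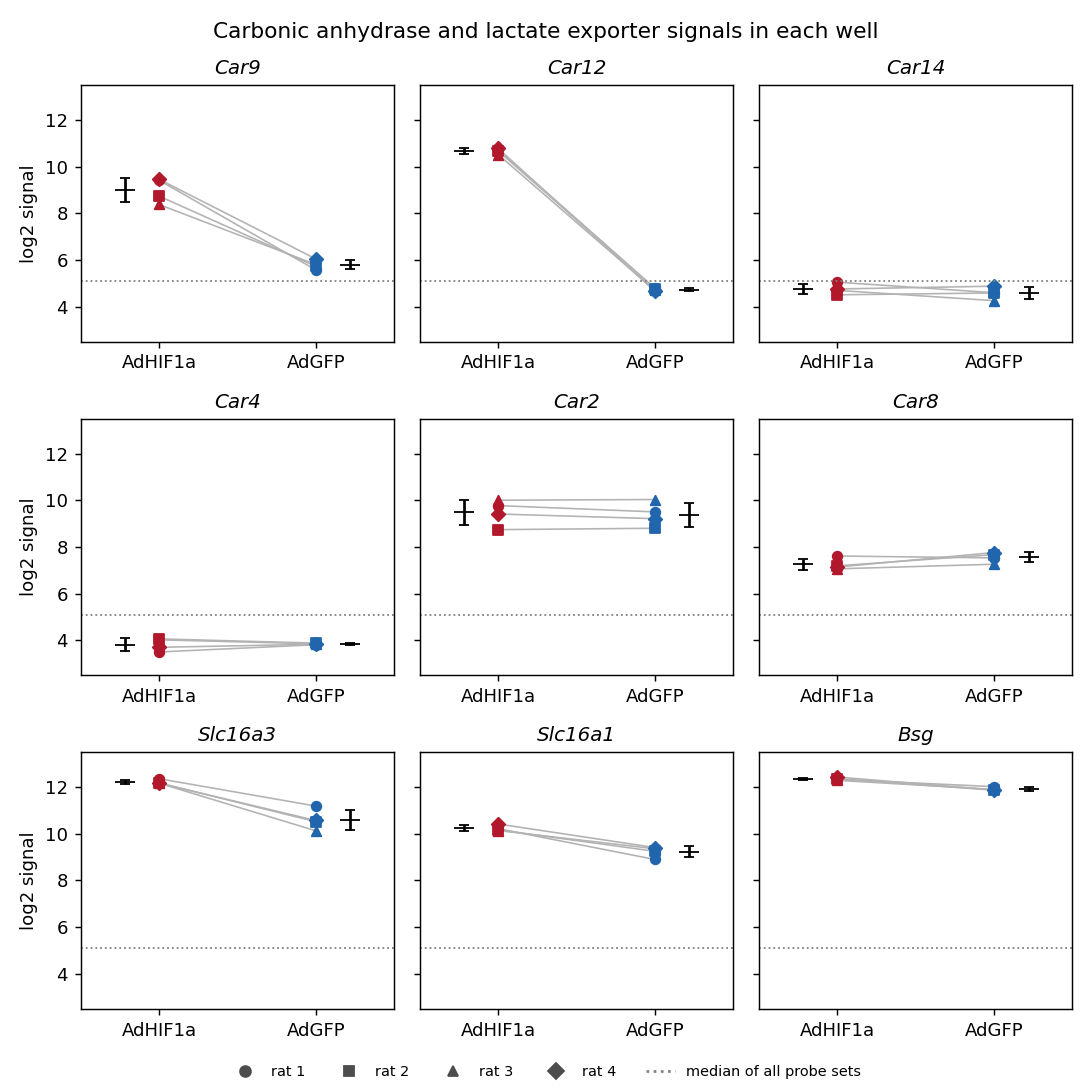
Log2 signal (y axis) of each of the 9 members in every well, AdHIF1a left and AdGFP right, with a symbol per rat, lines joining the wells of a rat, bars for mean ± SD and a dotted line at the median of all probe set values (5.10). Car12, Car9, Slc16a3, Slc16a1 and Bsg separate the viruses without overlap, while Car2 differs between rats and not between viruses.

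Both lactate transporters rose. Slc16a3 encodes MCT4, the exporter typical of strongly glycolytic cells. It gave 12.36, 12.18, 12.17 and 12.17 in the AdHIF1a wells of rats 1 to 4, against 11.19, 10.52, 10.13 and 10.57 in their AdGFP wells. The AdHIF1a wells were nearly level with each other, whereas the AdGFP wells spanned over 1 log2 unit with rat 1 highest. The means were 12.22 ± 0.09 in AdHIF1a wells and 10.60 ± 0.44 in AdGFP wells (SD, n = 4 each), a difference of 1.62 ± 0.15 or 3.07-fold (95% interval 2.36 to 3.99, limma adjusted p = 0.00437). Within rats 1 to 4 the differences were 1.17, 1.66, 2.04 and 1.60, smallest in the rat with the highest AdGFP signal and largest in the rat with the lowest. With the AdHIF1a wells nearly level, this order follows from the AdGFP values and is not a separate result.

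Slc16a1 encodes MCT1, which carries lactate in either direction and is found in most tissues. It gave 10.22, 10.17, 10.14 and 10.42 in AdHIF1a wells and 8.90, 9.25, 9.36 and 9.41 in AdGFP wells. Every AdHIF1a well lay above every AdGFP well, and rat 1 had the lowest AdGFP signal. The means were 10.24 ± 0.13 in AdHIF1a wells and 9.23 ± 0.23 in AdGFP wells (SD, n = 4 each), and the difference was 1.01 ± 0.11 or 2.01-fold (95% interval 1.65 to 2.45, limma adjusted p = 0.00693). The difference of Slc16a3 was larger than that of Slc16a1 in rats 2, 3 and 4, whereas in rat 1 Slc16a1 differed by 1.32 and Slc16a3 by 1.17. Whether the 2 transporters differ in response was not tested.

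Bsg, whose product escorts both transporters to the membrane, rose least. It gave 12.33, 12.36, 12.29 and 12.43 in AdHIF1a wells and 12.02, 11.87, 11.90 and 11.88 in AdGFP wells. Every AdHIF1a well lay above every AdGFP well, by a small margin. The difference was 0.44 ± 0.09, or 1.35-fold (95% interval 1.16 to 1.57, limma adjusted p = 0.0302), and was 0.31, 0.49, 0.39 and 0.55 in rats 1 to 4. The call was lost after median centring of the arrays (0.35, adjusted p = 0.0995) and without rat 2 (0.42, 0.15), rat 3 (0.45, 0.0955) or rat 4 (0.40, 0.144).

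**Figure D3:**
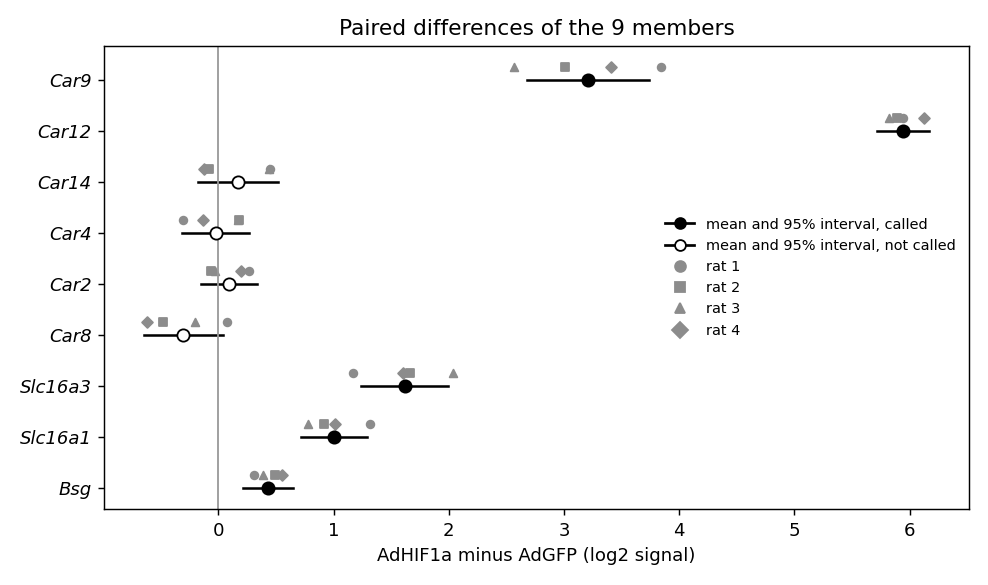
Difference AdHIF1a minus AdGFP in log2 signal (x axis) for each member, as mean and 95% interval (filled where called, open where not), with the value of each rat above it. The intervals of Car12 (5.72 to 6.17) and Car9 (2.68 to 3.74) lie apart from each other and from those of the other 7 genes.

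By the root mean square distance between the differences of the 4 rats, the genes nearest to Car12 were Stc1 (0.50), Tmem255b (0.84) and Tmem45a (0.95). These genes also ranked 2, 3 and 4 of all genes by difference. The distance thus mostly reflects the size of the rise and does not show a shared pattern over rats. Stc1, the gene of the secreted glycoprotein stanniocalcin 1, differed by 5.18, 5.47, 5.45 and 5.79 in rats 1 to 4. No member was called lower, so no such list was made for a decrease.

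The remaining genes of lactate and acid-base handling were read from 7 lists of 79 measured genes in all, of which 5 were higher (6.3%) and 9 lower (11.4%), beside 5.68% and 7.77% of all genes. Their median difference was -0.067, against -0.005 over all genes.

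Among 12 other monocarboxylate transporters and embigin, 2 were higher, 2 lower and 8 not called, with a median of -0.035. Emb encodes embigin, a relative of basigin that acts as a chaperone of monocarboxylate transporters, above all MCT2. It gave 11.78, 11.64, 11.56 and 11.58 in AdHIF1a wells and 9.81, 8.96, 9.98 and 9.04 in AdGFP wells. The AdHIF1a wells lay close together and far above the AdGFP wells, a difference of 2.19 ± 0.20 or 4.57-fold (95% interval 3.22 to 6.49, limma adjusted p = 0.00435). Slc16a7, the MCT2 gene itself, was not called (0.21 ± 0.20, adjusted p = 0.583), a gene named here after its value was seen. Slc16a6, a family member that exports ketone bodies from the zebrafish liver, rose by 0.60 ± 0.10 (limma adjusted p = 0.0214). The sodium-coupled lactate importer gene Slc5a8 fell by 1.14 ± 0.22 (adjusted p = 0.0263) and the creatine transporter gene Slc16a12 by 1.13 ± 0.16 (adjusted p = 0.0124), with means of 5.92 and 4.94 in AdHIF1a wells and 7.06 and 6.07 in AdGFP wells. The AdHIF1a mean of Slc16a12 lay below the probe set median, so its fall is not an exact size. The calls of Slc16a6 and Slc5a8 were each lost in 3 of the 4 fits that left out a rat, Slc16a6 without rat 1, 2 or 3 (adjusted p up to 0.111) and Slc5a8 without rat 2, 3 or 4 (up to 0.115). That of Slc16a12 was lost without rat 2 (0.0693), and that of Emb was kept in all 4 (0.0145 to 0.0315).

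Of 4 lactate dehydrogenase genes 1 was higher, 0 were lower and the median was 0.19. Ldha, the subunit that favours lactate formation, gave 10.83, 10.77, 10.72 and 10.83 in AdHIF1a wells and 10.23, 9.93, 10.04 and 10.16 in AdGFP wells, a difference of 0.70 ± 0.09 or 1.62-fold (limma adjusted p = 0.00855). The groups did not overlap, but Ldha missed the threshold without rat 2 (adjusted p = 0.0596) and without rat 4 (0.0547). Ldhb, the subunit typical of oxidative tissue and chosen for mention after its value was seen, differed by -0.33 ± 0.09 and was not called (adjusted p = 0.0661). It was called lower with the rat as a random block (0.0489), the filter at the median (0.031), array weights (0.0402), the trended robust prior (0.0397) and the prior from gene-level probe sets (0.0299).

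Of the 9 other carbonic anhydrases measured, 0 were higher (0 also at an unadjusted p under 0.05) and 1 was lower, with a median of -0.057. The lower gene was Car5b, the mitochondrial enzyme, at 10.07 ± 0.13 in AdHIF1a wells and 10.53 ± 0.20 in AdGFP wells (SD, n = 4 each; difference -0.47 ± 0.09, limma adjusted p = 0.0295). Its call was lost without rat 2, 3 or 4 (adjusted p = 0.148, 0.0933 and 0.141).

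Among 14 bicarbonate transporters 0 were higher (1 at an unadjusted p under 0.05) and 2 lower by limma, with a median of -0.03. Slc26a9, an anion transporter and chloride channel of airway and alveolar epithelium, gave 9.89, 10.31, 10.15 and 9.97 in AdHIF1a wells, against 11.44, 11.31, 11.07 and 11.29 in AdGFP wells. Every AdHIF1a well lay below every AdGFP well, and the gene fell by 1.20 ± 0.13, or 2.29-fold (limma adjusted p = 0.00654), a call kept without any 1 rat (0.0174 to 0.0461). Slc4a11, a member of the bicarbonate transporter family, fell by 0.40 ± 0.09 (adjusted p = 0.0388), and its call was lost without any 1 of the 4 rats (0.0819 to 0.17).

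Of 10 genes of sodium-proton exchange and the proton channel, 0 were higher (0 at an unadjusted p under 0.05) and 2 lower, with a median of -0.29. Chp1, a cofactor of sodium-proton exchangers, fell by 0.64 ± 0.09 (limma adjusted p = 0.0103) and Nherf2, a scaffold of the exchanger NHE3, by 0.59 ± 0.11 (adjusted p = 0.0239). Without rat 2 or rat 4 the call of Chp1 was lost (0.0687 and 0.0659), as was that of Nherf2, which was also lost without rat 3 (0.112, 0.114 and 0.0893).

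Among 22 subunits of proton pumps 2 were higher, 2 lower and 18 not called, with a median of -0.14. Atp6v0a4 and Atp6v0a1 encode alternative forms of the same membrane subunit of the vacuolar proton pump, the first known from acid-secreting kidney cells. Atp6v0a4 gave 8.95, 8.77, 8.39 and 8.55 in AdHIF1a wells, against 7.43, 7.52, 5.77 and 6.60 in AdGFP wells, a rise of 1.84 ± 0.23 or 3.57-fold (limma adjusted p = 0.0091). Atp6v0a1 gave 9.28, 8.98, 9.19 and 8.84 in AdHIF1a wells and 10.09, 10.37, 10.17 and 10.34 in AdGFP wells, a fall of 1.17 ± 0.14 on the log2 scale (adjusted p = 0.00832). These 2 forms moved in opposite directions in each of the 4 rats. The pump's accessory subunit gene Atp6ap1 rose by 0.68 ± 0.09 (adjusted p = 0.0095) and Atp6v0e2 fell by 0.64 ± 0.13 (adjusted p = 0.0312). Calls were lost for Atp6v0a1 without rat 2 (adjusted p = 0.0522), for Atp6v0a4 without rat 4 (0.0579), for Atp6ap1 without rat 2 or 4 (0.0579 and 0.0585) and for Atp6v0e2 without rat 2, 3 or 4 (0.142, 0.0887 and 0.127).

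Of 8 proton and lactate receptors 0 were called by limma in either direction (1 higher and 0 lower at an unadjusted p under 0.05), and all 8 had means below the probe set median. Asic3, an acid-sensing ion channel, had the smallest p, with 4.86 ± 0.19 in AdHIF1a wells and 4.41 ± 0.13 in AdGFP wells (SD, n = 4 each; limma adjusted p = 0.0941). It was called higher without the rat as a block (0.0282), with the rat as a random block (0.0243) and with the prior from gene-level probe sets (0.0422).

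**Figure D4:**
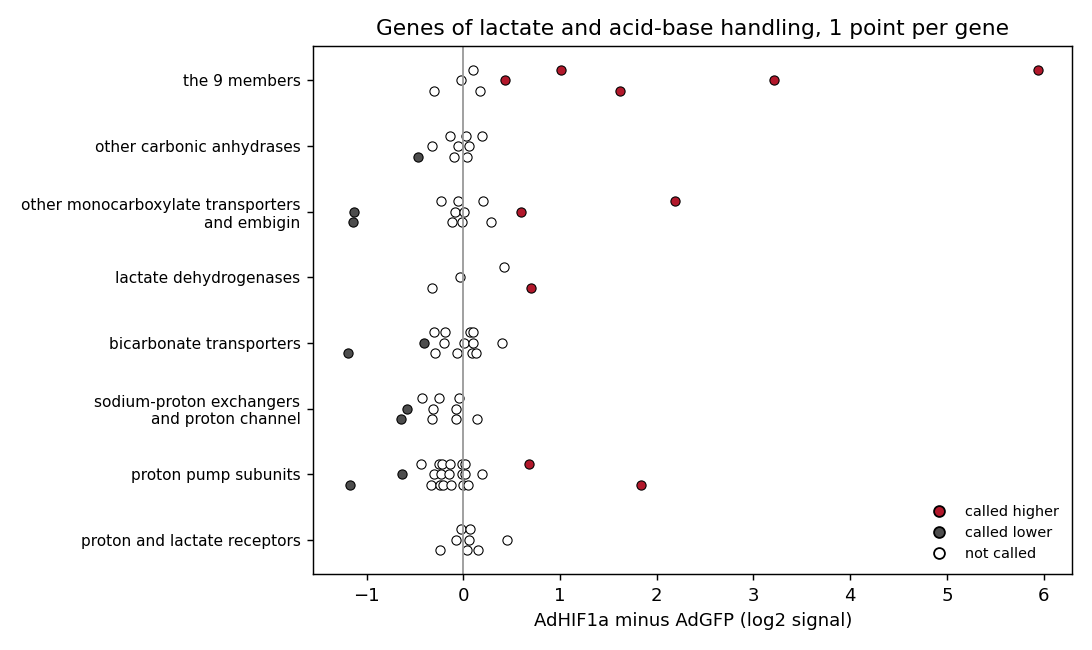
Difference AdHIF1a minus AdGFP in log2 signal (x axis), 1 point per gene, for the 9 members and the 7 lists of related genes (rows); red points were called higher, grey ones lower and open ones not called, and points are offset vertically only to separate them. Outside the members the points farthest to the right are Emb (2.19) and Atp6v0a4 (1.84), and most points of every other list lie near 0.

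The labelled cell type was checked with marker lists. ATII markers had means above the probe set median (Sftpc 12.62 in AdHIF1a and 12.34 in AdGFP wells, not called). Of 9 ATII markers 2 were called higher and 3 lower, and the median difference was -0.39. At an unadjusted p under 0.05, 3 had a positive and 5 a negative difference, the lowest being Napsa (-1.52). Alveolar type I markers were present too and 8 of 10 were called lower. Their summed signal was 13.36 to 13.86 in AdHIF1a wells and 14.30 to 14.73 in AdGFP wells. For the ATII markers the summed signal was 13.97 to 14.38 in AdHIF1a wells and 13.97 to 14.41 in AdGFP wells. Here and below such a sum is the log2 of the added unlogged signals, which the brightest genes of a list dominate. Of 10 macrophage markers 1 was called lower, 5 had a negative and 1 a positive difference at an unadjusted p under 0.05, and the median difference was -0.27. That threshold is loose: for the macrophage marker Ptprc an unadjusted limma p of 0.0468 became 0.174 after adjustment. The summed signal of the macrophage markers was 13.09 to 13.38 in AdHIF1a wells and 12.87 to 13.16 in AdGFP wells. Without Lyz2 it was 9.95 to 11.54 in AdHIF1a wells and 10.82 to 11.60 in AdGFP wells. Of 8 endothelial markers 1 was lower (8.62 to 8.82 in AdHIF1a wells and 8.66 to 9.01 in AdGFP wells). Of 10 fibroblast markers 1 was lower (9.87 to 11.30 in AdHIF1a wells and 11.54 to 11.996 in AdGFP wells). Of 5 red blood cell markers 0 were called by limma, and 0 had an unadjusted p under 0.05 (6.53 to 6.73 in AdHIF1a wells and 6.43 to 6.72 in AdGFP wells). The fibroblast gene called was Fn1, which other cells also express, and 7 of the 10 fibroblast, 5 of the 8 endothelial and 5 of the 5 red blood cell markers had means below the probe set median. Fewer cells of a type and less RNA per cell cannot be told apart in these samples. The part of the type I and macrophage markers in the differences of the 9 genes was not tested.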

How the data were processed

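Total RNA from 8 wells was labelled with biotin and measured on Affymetrix arrays, 4 with AdHIF1a and 4 with AdGFP. The deposited values are log2 signals for 36685 probe sets, made with Affymetrix Expression Console per the submitters' processing notes; for the algorithm and the genome build, the sources used here give no name. The range of the values showed the log2 scale. Array medians were 5.00 to 5.20, so the arrays shared a scale before deposit, and a general shift of all transcripts would not be seen. Of the probe sets 18511 carried 1 symbol in the platform annotation, 575 several and 17599 none. A gene with several probe sets was represented by the one with the highest mean, which left 18166 genes.

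limma 3.58.1 in R 4.3.3 was fitted to all probe sets, with a fixed term for each rat, and p-values were adjusted over the genes. Pairs were taken from the series' design. Wells of a rat deviated together (correlations of 0.18 to 0.26 across genes, against -0.22 to 0.08 for wells of different rats and viruses). Deviations were taken from the mean of each virus group, so positive values within rats push the others down. The contrast is thus partly built in. At most 1.95% of values were equal, to the 2 decimals deposited, between any 2 arrays. The fit was tested on simulated data. Members, gene lists and tests were chosen with earlier results of these data known. Named were all members and up to 4 called genes of each list by size of difference (in a list without a call, the gene with the smallest p). Also named were the 3 genes whose within-rat differences lay nearest to those of the called member with the largest difference. Alternatives were no block, a random block, quantile normalization, median centring, 2 filters on dim probe sets, array weights, a trended robust prior, the mean of probe sets, an adjusted p under 0.01, omission of each rat, and, chosen after seeing the data, a variance prior from the gene-level probe sets alone. Promoter windows are RefSeq's (GRCr8). The number of arrays limits the precision.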

Additional observations from a re-analysis of the deposited data

Results flagged for a closer look

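Among the 18 groups of 4 wells formed by the 9 members, 1 held a well far from the others by Dixon's test at its 95% critical value. Slc16a3 in the AdHIF1a well of rat 1 was 12.36, with the other 3 AdHIF1a wells at 12.17 to 12.18, against 10.13 to 11.19 in AdGFP wells. Chance gives such a value in about 1 of 20 groups. Rat 1 also had the highest Slc16a3 signal among the AdGFP wells (11.19), and without rat 1 the difference was 1.77 (limma adjusted p = 0.011).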

How the results depend on the processing

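Car12, Car9, Slc16a3 and Slc16a1 stayed called and positive under every alternative run, and the 5 higher members were 4 only where Bsg was lost. Without the replicate block, differences were as before, no member's call changed and adjusted p was 5.85e-09 for Car12, 0.000106 for Car9, 0.001 for Slc16a3, 0.00121 for Slc16a1 and 0.00591 for Bsg. Bsg was not called at an adjusted p under 0.01 (0.435) or after median centring (0.353), and without 1 rat its difference ranged from 0.397 to 0.477 and was called only without rat 1. Car4, never called, turned sign with array weights (0.026) and ranged from -0.09 to 0.073 without 1 rat. Over the fits without 1 rat the differences ranged from 5.88 to 5.98 for Car12, 3.00 to 3.42 for Car9, 1.48 to 1.77 for Slc16a3 and 0.90 to 1.08 for Slc16a1. Car14 and Car4 did not pass the filter at the median. Of all genes, 1032 were called higher and 1411 lower; the counts were 349 and 307 at an adjusted p under 0.01, 635 higher after median centring, 1576 higher with the prior from the gene-level probe sets, and 315 to 775 higher and 246 to 1231 lower without 1 rat. Of the 79 listed genes, 14 were called, and 3 to 12 of these 14 were called without 1 rat, fewest without rat 2. The 9 lower calls among them became 14 with the trended robust prior, 13 with the prior from gene-level probe sets, 12 with a random block, 12 of 50 genes with the filter at the median, and 2 at an adjusted p under 0.01. Signals below the probe set median (Car14, Car4, Car12 in AdGFP wells, Slc16a12 in AdHIF1a wells) limit what can be read as a fold.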
